A study of Mus musculus with 24 samples.

Results

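Neuropeptides are small signalling proteins that neurons cut from larger precursors and release from dense core vesicles, mostly beside the fast transmitters glutamate and GABA. They act on receptors that, for nearly all of the genes treated here, are coupled to G proteins. In the mouse forebrain, Npy, Sst, Vip, Cck and Cort are best known from subsets of GABA neurons, while Avp, Oxt, Hcrt, Pmch, Agrp and Pomc are made by small groups of hypothalamic neurons that control water balance, reproduction, waking and feeding.

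The genes described are 47 of the 53465 genes in the count files. They were chosen by name, as peptide precursors of cortex and hypothalamus and their receptors, and comprise 20 precursors and 27 genes for receptors or a binding protein. The values are read counts from brain RNA of 6 CAST/EiJ mice and 6 WSB/EiJ mice, called CAST and WSB here. Both are inbred strains derived from wild mice, CAST/EiJ from the subspecies castaneus and WSB/EiJ from domesticus. The study set out to compare gene expression between strains that differ in the size of the infarct left by occlusion of a cerebral artery. The labels give no operation, treatment, sex, age or dissection for these 12 animals, and name the tissue as brain. No engineered allele is labelled.

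Each animal had 2 lane files, which were summed. Between 38771135 and 46513232 reads fell in genes in CAST animals, and between 32982569 and 45772849 in WSB animals. Levels are CPM, read counts divided by library size after TMM scaling. Strains were compared with edgeR's quasi-likelihood test over 18425 genes, and a gene was called at a Benjamini-Hochberg adjusted p under 0.05. Pan-neuronal markers were present in every animal, with sums over 8 genes of 6567 to 7330.2 CPM (CAST) and 7069 to 8077 CPM (WSB), and Tubb3 alone was listed at 0. Some libraries stood apart in markers of brain regions. The summed level of 9 cerebellar markers was 1639.6 CPM in the animal CAST_142, against 108 to 178 CPM in the other 11 animals, with Cbln1, Pcp2 and Neurod1 at 0. Of 5 cerebellar markers tested, 3 were called higher in CAST by edgeR and 0 by DESeq2, and without CAST_142 and WSB_100 Ppp1r17 and Fat2 were not (adjusted p of 0.214 and 0.613). In the same animal 9 striatal markers summed to 347 CPM, against 869 to 1826 CPM elsewhere, with CAST_202 next at 869 CPM. In WSB_100 the sum of 7 olfactory bulb markers was 291 CPM, against 21.2 to 63.3 CPM elsewhere, and the 7 choroid plexus markers had their lowest sum, 51.7 CPM, against 139.8 to 733 CPM elsewhere, with Kcnj13 at 0. In each of these lists 1 gene was called, lower in CAST: Doc2g of the olfactory bulb (log2 fold change -2.63, adjusted p = 0.013; -1.29 without both animals) and Clic6 of the choroid plexus (-1.28, adjusted p = 0.00181; -1.20 without both). Thalamic markers, 7 in all, summed to 301 to 598 CPM in CAST and 267 to 583 CPM in WSB. The highest sums were those of CAST_142 (598 CPM), WSB_138 (583 CPM), CAST_202 (562 CPM) and WSB_120 (522 CPM). Fits without CAST_142 and WSB_100 keep CAST_202, WSB_138 and WSB_120. Of the 7 pan-neuronal, 7 thalamic and 9 striatal markers tested, 0 were called by edgeR or DESeq2, and 1 pan-neuronal marker had an unadjusted p under 0.05 by each. CAST_142 was the lowest CAST animal for 30 of the 45 members tested. Fewer cells of a type and less RNA per cell cannot be told apart in these samples.

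All 47 genes were present in the files and 45 passed the expression filter. Sstr2 and Avpr1a were listed at 0 reads in all 12 animals, and both lie wholly inside a gene of the opposite strand (Slc39a11 and Gm48877), so nothing is said of their expression. Of the 45, 8 were called, which is 17.8%. Cort and Npy5r were higher in CAST, and Npy, Sst, Cck, Crhbp, Oprd1 and Oxtr were lower. Over all 18425 genes tested, 42.7% were called, 21.5% as higher in CAST and 21.2% as lower, so that the share among these genes lay under that of all genes. For 5 members (Cort, Npy5r, Npy, Oprd1 and Oxtr), or 11.1% of the 45, no CAST animal lay within the WSB range, and for all genes tested the share was 27.1%. The median log2 fold change, CAST over WSB, was -0.05 for the 45 genes and 0.00 for all genes, with 21 members above 0 and 24 below. The members varied more between animals than most genes did. Their median standard error of the log2 fold change was 0.17, against 0.10 for all genes. Of the called members, Cort alone differed by 2-fold or more. Vipr2, which was not called, was 2.48-fold higher in WSB. Without CAST_142 and WSB_100 the members called were 5 higher (Cort, Npy5r, Npy1r, Sstr1 and Crh) and 5 lower (Npy, Sst, Crhbp, Oprd1 and Oxtr).

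**Figure D1:**
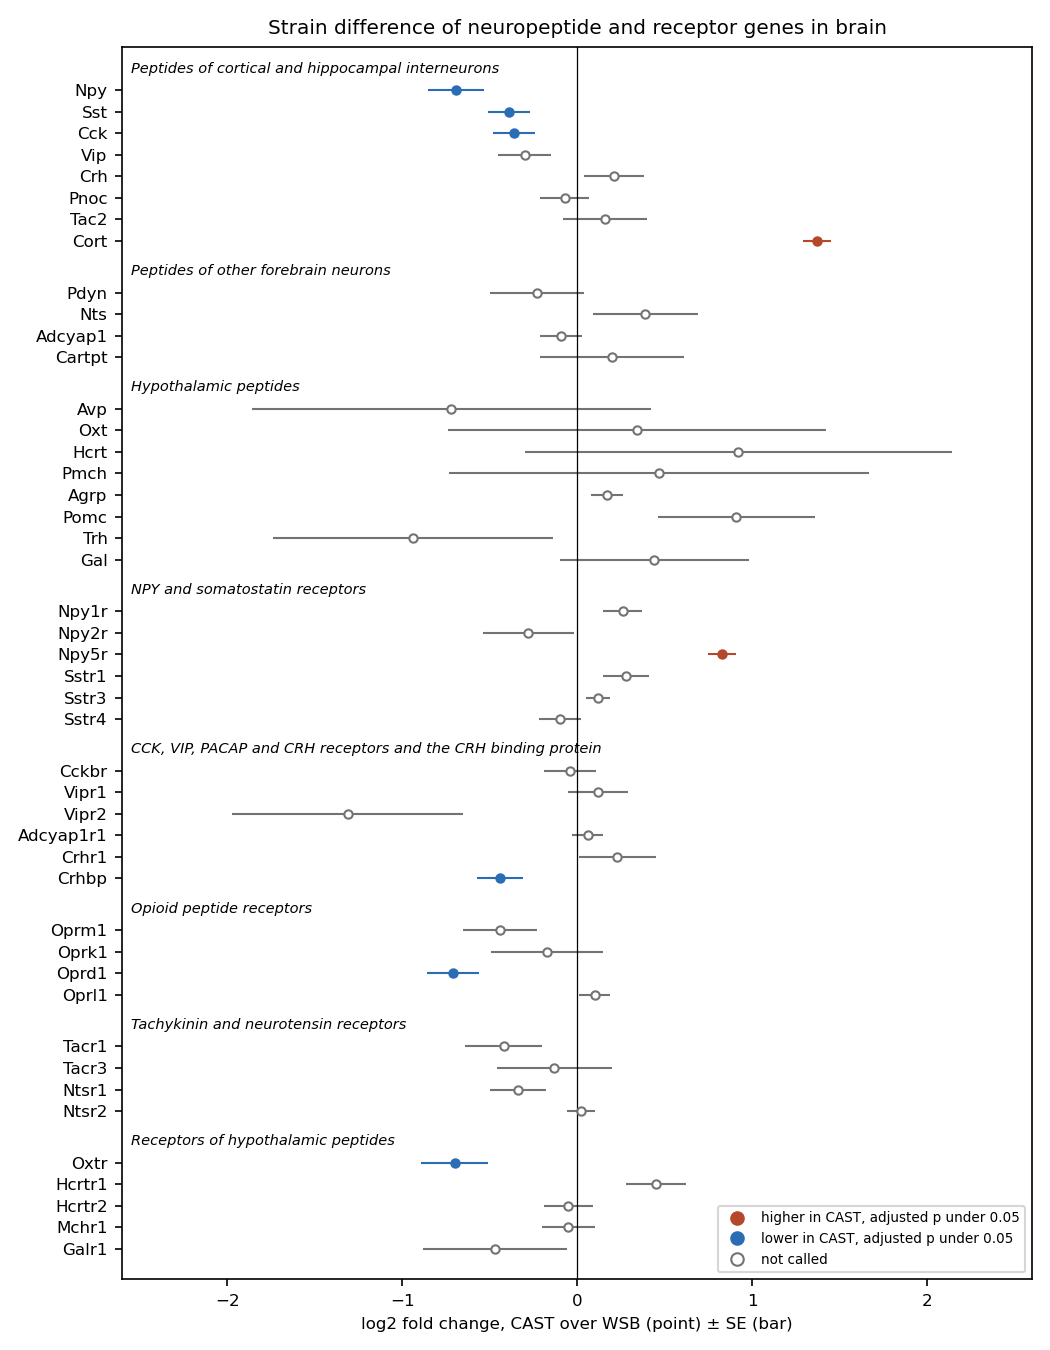
Log2 fold change of each of the 45 tested genes, CAST over WSB, with its standard error as a bar, grouped by role. Filled points passed an adjusted p of 0.05: 2 lie right of 0 and 6 left of it. The widest bars belong to Avp, Oxt, Hcrt and Pmch.

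The precursors with a called strain difference are shown first by the sequence around their start sites, together with the called receptors of smallest p, since transcription of these genes begins there. The windows run from 250 bases before to 50 bases after the start in RefSeq's GRCm38.p6 reference, and 41 of the 47 members have one. They are reference sequence, and strain variants were not analysed here. Capitals mark matches to the cyclic AMP response element TGACGTCA or its core TGACG, both on either strand, to TATAAA on the gene's strand, and to CACGTG, which reads the same on both strands. The windows are Cort at chr4:149126714-149127013, minus strand; Npy at chr6:49822460-49822759, plus strand; and Sst at chr16:23890795-23891094, minus strand. Those of the other genes are Cck at chr9:121495645-121495944, minus strand; Npy5r at chr8:66688045-66688344, minus strand; and Oprd1 at chr4:132144437-132144736, minus strand.
Cort: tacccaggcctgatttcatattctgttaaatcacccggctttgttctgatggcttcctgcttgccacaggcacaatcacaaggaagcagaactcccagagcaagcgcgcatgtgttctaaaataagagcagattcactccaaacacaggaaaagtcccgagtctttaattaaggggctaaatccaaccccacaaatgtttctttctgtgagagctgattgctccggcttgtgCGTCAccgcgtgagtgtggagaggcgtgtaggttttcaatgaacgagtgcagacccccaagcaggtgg
Npy: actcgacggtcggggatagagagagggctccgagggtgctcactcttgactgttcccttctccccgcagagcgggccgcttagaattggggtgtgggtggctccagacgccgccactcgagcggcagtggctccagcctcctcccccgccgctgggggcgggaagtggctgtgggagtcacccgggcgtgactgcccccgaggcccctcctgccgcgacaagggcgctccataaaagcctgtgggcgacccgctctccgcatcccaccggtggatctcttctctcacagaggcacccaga
Sst: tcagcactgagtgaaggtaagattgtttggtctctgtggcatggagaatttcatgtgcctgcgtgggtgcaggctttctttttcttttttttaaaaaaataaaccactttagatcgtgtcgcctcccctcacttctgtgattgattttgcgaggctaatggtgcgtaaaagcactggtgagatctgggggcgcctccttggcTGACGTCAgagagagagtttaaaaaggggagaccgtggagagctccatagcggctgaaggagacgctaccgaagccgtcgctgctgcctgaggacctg
Cck: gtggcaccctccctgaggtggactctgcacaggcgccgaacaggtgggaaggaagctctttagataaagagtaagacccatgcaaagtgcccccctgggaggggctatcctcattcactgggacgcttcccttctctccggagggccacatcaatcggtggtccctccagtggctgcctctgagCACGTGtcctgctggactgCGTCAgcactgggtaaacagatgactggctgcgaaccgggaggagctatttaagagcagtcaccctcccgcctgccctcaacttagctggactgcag
Npy5r: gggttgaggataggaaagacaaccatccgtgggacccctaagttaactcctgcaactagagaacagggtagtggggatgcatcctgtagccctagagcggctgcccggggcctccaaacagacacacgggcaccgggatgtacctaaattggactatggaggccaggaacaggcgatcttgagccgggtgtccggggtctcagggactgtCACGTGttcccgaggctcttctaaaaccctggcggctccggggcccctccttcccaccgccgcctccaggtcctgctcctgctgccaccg
Oprd1: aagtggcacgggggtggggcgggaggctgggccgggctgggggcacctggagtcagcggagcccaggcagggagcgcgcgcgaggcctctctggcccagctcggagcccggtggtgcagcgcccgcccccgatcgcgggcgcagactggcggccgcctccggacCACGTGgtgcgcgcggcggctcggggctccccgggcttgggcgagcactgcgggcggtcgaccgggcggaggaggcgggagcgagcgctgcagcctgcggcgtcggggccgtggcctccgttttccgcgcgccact
The Sst window holds the whole TGACGTCA, beginning 48 bases before the start, an element through which cyclic AMP is known, from the rat gene, to raise its transcription. It occurs in 1.79% of all 32851 windows and in 3 members, Sst, Cartpt and Sstr2. The shorter TGACG, which is part of it, is in 20.8% of all windows and in 18 members, among them Cck, 47 bases before the start, and Cort, 18 bases before it. CACGTG is in 7.15% of all windows and in 9 members, among them Cck, Npy5r, Oprd1 and Oxtr. TATAAA is in 8.32% of windows and in 8 members, none of them called except Crhbp. The Npy window holds none of these. The matches are a description of the letters and were not tested as sites.

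Of the 8 peptides of cortical and hippocampal interneurons, 1 was higher in CAST and 3 were lower. Cort encodes cortistatin, a relative of somatostatin that binds the somatostatin receptors and is made by part of the somatostatin neurons. Its levels in CAST were 7.39, 7.82 and 8.49 CPM (lowest, median and highest), against 2.59, 2.95 and 3.48 CPM in WSB. Every CAST animal lay above every WSB animal, and the spread within each strain was small. The log2 fold change was 1.37 ± 0.08 (SE), or 2.59-fold higher, with an edgeR adjusted p of 2.02e-08. CAST_142, which was lowest among CAST animals for the 6 genes that were lower, was the highest of all for Cort, at 8.49 CPM. Cort lies on chromosome 4 (GRCm38, 149125034 to 149126763, minus strand). The gene Cenps ends 357 bases before its start on the same strand, and was also higher in CAST. Cenps had 29.1, 31 and 37 CPM in CAST, against 9.32, 10.9 and 12.4 CPM in WSB, a log2 fold change of 1.53 ± 0.08 (edgeR adjusted p = 2.26e-09). Of 6 tested genes within 150 kb of Cort, 3 were called, each higher in CAST: Cenps, Dffa and Rpsa-ps12. Over all genes tested, 42.7% were called in either direction. Neighbouring genes were chosen for mention after their values were seen. The part of Cenps reads in the Cort difference was not tested.

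Npy encodes neuropeptide Y, a peptide of many interneurons that dampens transmitter release and promotes feeding. In CAST it stood at 20.9, 39.5 and 40.5 CPM (lowest, median and highest), and in WSB at 43.5, 55.2 and 66.2 CPM. Every CAST animal lay below every WSB animal, and CAST_142 and CAST_202, at 20.9 and 26.6 CPM, lay below the other 4 of their strain. The level was 1.61-fold lower in CAST (log2 fold change -0.69 ± 0.16, edgeR adjusted p = 0.00337). No other gene within 150 kb of Npy was tested.

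Somatostatin, encoded by Sst, inhibits hormone and transmitter release and marks a main class of dendrite-targeting interneurons. Sst levels were 67.3, 109 and 123 CPM in CAST, against 116, 141 and 149 CPM in WSB. The ranges overlapped through WSB_100, the lowest WSB animal at 116 CPM, which lay below CAST_170 and CAST_200 at 123 CPM each. The level was 1.31-fold lower in CAST (log2 fold change -0.39 ± 0.12, edgeR adjusted p = 0.0228). The difference was called in all 20 alternatives, with log2 fold changes of -0.44 to -0.29. The highest adjusted p among those fits was 0.0491, just under the threshold.

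Cck encodes cholecystokinin, which pyramidal cells as well as interneurons make in the forebrain. It had 118, 159.9 and 170.2 CPM in CAST, against 157, 177 and 239 CPM in WSB. The ranges overlapped, and WSB_120 and WSB_169, at 224 and 239 CPM, stood above the other 4 WSB animals. The level was 1.28-fold lower in CAST (log2 fold change -0.36 ± 0.12, edgeR adjusted p = 0.034). This call was the least stable: it was lost under 6 alternatives, among them the ones without CAST_142 (adjusted p = 0.0637), CAST_202 (adjusted p = 0.0741), WSB_120 (adjusted p = 0.0728) or WSB_169 (adjusted p = 0.0768).

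The other interneuron peptides were not called. Vip, of interneurons that inhibit other interneurons, had 19.6, 26.7 and 31.1 CPM in CAST, against 22.7, 31.1 and 40.6 CPM in WSB (log2 fold change -0.30, approximate 95% interval -0.58 to -0.01, adjusted p = 0.12). Crh, the precursor of the stress peptide corticotropin-releasing hormone, had 2.51, 4.3 and 5.19 CPM in CAST, against 2.81, 3.55 and 4.58 CPM in WSB. Its log2 fold change was 0.21 (interval -0.13 to 0.55), and 0.40 without CAST_142 and WSB_100, where it was called (adjusted p = 0.0218). Pnoc, the nociceptin precursor, had 5.97, 8.01 and 9.6 CPM in CAST, against 6.55, 8.39 and 9.84 CPM in WSB, with an interval of -0.34 to 0.20. Tac2, the neurokinin B precursor, had 2.06, 5.56 and 6.65 CPM in CAST, against 3.11, 4.24 and 5.91 CPM in WSB, with an interval of -0.31 to 0.64. The 4 peptides of the group that were not called thus lay on both sides of 0.

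**Figure D2:**
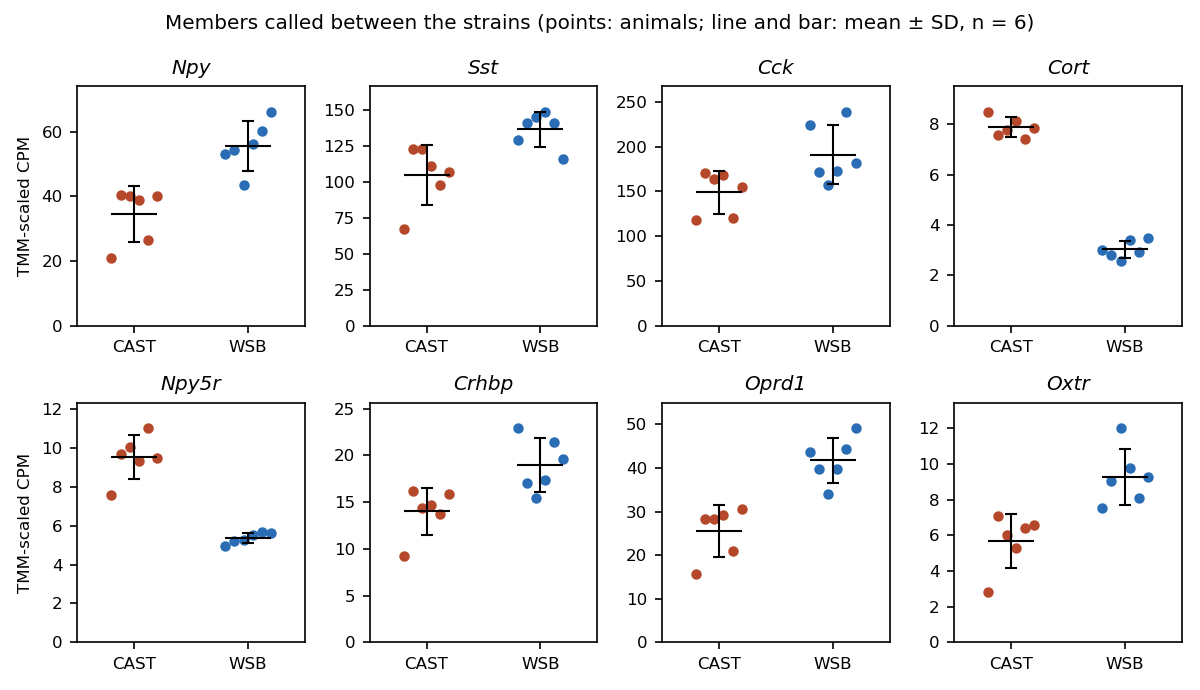
TMM-scaled CPM of the 8 called genes in each animal, CAST left of WSB in each panel, with a line at the mean and a bar of 1 SD (n = 6 each). In Cort, Npy5r, Npy, Oprd1 and Oxtr no CAST animal overlaps a WSB animal. The lowest CAST point is CAST_142 in all panels but that of Cort.

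Markers of GABA neurons other than peptides were compared beside these levels. Their summed level over 15 genes was 1283, 1463 and 1937 CPM in CAST (lowest, median and highest), against 1348, 1629.5 and 2099 CPM in WSB, and none was at 0. The highest sums were those of CAST_142 and WSB_100, both among the libraries that stood apart in regional markers. Without them the sums ran from 1283 to 1485 CPM in CAST and from 1348 to 1675 CPM in WSB. Of the 15, 1 was called: Ndnf, of neurogliaform cells of layer 1, which was lower in CAST (log2 fold change -0.96 ± 0.25, adjusted p = 0.00621). Its highest WSB value, 69.8 CPM against a WSB median of 28.3 CPM, was that of WSB_100, and without CAST_142 and WSB_100 the log2 fold change was -0.58 (adjusted p = 4.35e-04). DESeq2 called 2 of the 15, Ndnf and Gad1. Lhx6, the transcription factor of the lineage that gives the Sst neurons and many Npy neurons, had medians of 24.2 CPM in CAST and 24.7 CPM in WSB (log2 fold change -0.03 ± 0.17). Gad1, which makes GABA, had medians of 325 CPM in CAST and 401 CPM in WSB (log2 fold change -0.41 ± 0.16, adjusted p = 0.0519). Lhx6 and Gad1 were chosen for mention after their values were seen. Of the 15 markers, 7 had log2 fold changes above 0 and 8 below. Summed excitatory markers were 1416 to 2002 CPM in CAST and 1620.3 to 2204 CPM in WSB. Of these 10 genes, 0 were called, and 0 had an unadjusted p under 0.05, by edgeR and by DESeq2. CAST_142 (1416 CPM) and CAST_202 (1447 CPM) had the lowest sums, and were also the lowest animals for Npy, Sst and Cck. WSB_169 (2204 CPM) and WSB_120 (2089 CPM) had the highest sums, and were the highest animals for Cck, but not for Npy or Sst. CAST_201, at 2002 CPM, exceeded the remaining WSB sums. Its Cck level, 168 CPM, still lay below those of all WSB animals but WSB_138. The part of cell numbers and of excitatory marker levels in the differences of Npy, Sst and Cck was not tested.

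None of the 4 peptides of other forebrain neurons was called by edgeR or by DESeq2, and 0 had an unadjusted p under 0.05 by either. Pdyn, the dynorphin precursor of striatal and dentate granule neurons, had 12.3, 41.7 and 50.7 CPM in CAST, against 28.5, 48.4 and 52.8 CPM in WSB. A single animal lay far below the rest in each strain, CAST_142 at 12.3 CPM and WSB_120 at 28.5 CPM, and these were also the lowest of each strain in summed striatal markers, at 347 and 1032 CPM. CAST_202 had a striatal sum of 869 CPM, below that of WSB_120, but its Pdyn level, 37 CPM, was higher than that of WSB_120. The part of the striatal share in the spread of Pdyn was not tested. Nts, the neurotensin precursor, had 3.95, 7.8 and 12 CPM in CAST, against 3.14, 6.29 and 8.6 CPM in WSB (log2 fold change 0.39, interval -0.20 to 0.97). Adcyap1, the precursor of PACAP, had 16.3, 18.9 and 25.5 CPM in CAST, against 15, 21.4 and 24.2 CPM in WSB (log2 fold change -0.09, interval -0.33 to 0.15). Cartpt, whose peptide acts in feeding and reward circuits, had 2.67, 11.3 and 24.6 CPM in CAST, against 4.3, 11.1 and 14 CPM in WSB, and CAST_202 was its highest animal (log2 fold change 0.20, and -0.15 without it).

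The 8 hypothalamic peptides had the widest spread between animals of the 8 groups of members, and none was called by edgeR or DESeq2. By unadjusted p under 0.05, 0 passed with edgeR and 1 with DESeq2. The median standard error of their log2 fold changes was 0.94. Avp, the vasopressin precursor, had 0.181, 4.8 and 21.4 CPM in CAST, against 0.202, 8.18 and 34.5 CPM in WSB. Its highest animal was 118 times the lowest in CAST and 171 times in WSB, while its log2 fold change between the strains was -0.72 ± 1.14. Oxt, the oxytocin precursor, had 0.0678, 3.81 and 19.3 CPM in CAST, against 0.101, 1.85 and 16.8 CPM in WSB (log2 fold change 0.34 ± 1.08, and -0.51 without CAST_202). It lies 3565 bases from Avp on chromosome 2, on the opposite strand.

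Hcrt encodes the wake-promoting orexins of the lateral hypothalamus. Its levels were 0.054, 0.7 and 13.3 CPM in CAST, against 0.0253, 0.376 and 6.55 CPM in WSB (log2 fold change 0.92 ± 1.22, and -0.48 without CAST_202). Pmch, the precursor of melanin-concentrating hormone from neighbouring cells, had 0.0678, 1.83 and 15.5 CPM in CAST, against 0.0512, 0.735 and 11.2 CPM in WSB (log2 fold change 0.47 ± 1.20, and -0.69 without CAST_202). Only 27.6% of the Pmch gene body lies outside another gene, Parpbp on the opposite strand. Trh, the thyrotropin-releasing hormone precursor, had 0.565, 3.33 and 11.6 CPM in CAST, against 1.33, 5.91 and 24.9 CPM in WSB. Its highest WSB value came from WSB_100, and its log2 fold change of -0.94 ± 0.80 was 0.06 without CAST_142 and WSB_100.

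These genes were high in the same animals. CAST_202 was the highest CAST animal for 7 of the 8 (all but Agrp), and CAST_142 the lowest for 5. In WSB, WSB_135 was highest for 4 of the 8 (Avp, Oxt, Pomc and Gal), and WSB_138 for Hcrt and Pmch. In WSB_120, Avp, Oxt and Hcrt were at 0.202, 0.101 and 0.0253 CPM, each the lowest of its strain. Markers of hypothalamic neurons other than peptides had their highest CAST sum in CAST_202, 50.4 CPM where the others had 16.1 to 23.3 CPM, and their highest WSB sum in WSB_138, 31.1 CPM. Of the WSB_138 sum, Lhx9 gave 9.62 CPM and Slc18a2 14.2 CPM. CAST_202 was the highest CAST animal for all 10 of these markers that had reads. Among WSB animals, WSB_135 was the highest for 6 of the 10 and WSB_138 for 3. CAST_142, where most of the peptides were lowest, had a sum of 21 CPM, of which Lhx9 and Slc18a2 gave 9.38 CPM each. It was lowest or tied for lowest in CAST for 5 of the 10 markers: Nkx2-1 at 0.203 CPM, Sim1 at 0.0452 CPM, and Six6, Rax and Fezf1 at 0. Hmx2 and Hmx3, of the 12 genes in that list, were at 0 in every animal. Of 6 hypothalamic markers tested, 0 were called by edgeR or DESeq2, and 0 had an unadjusted p under 0.05 by edgeR and 2 by DESeq2. Pituitary markers summed to 2.38 CPM in CAST_202 and to at most 0.75 CPM in the other animals, and Tshb was at 0. Of 7 pituitary markers, 0 passed edgeR's filter, and DESeq2 called 1, lower in CAST. The part of these marker levels in the spread of the peptides was not tested.

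**Figure D3:**
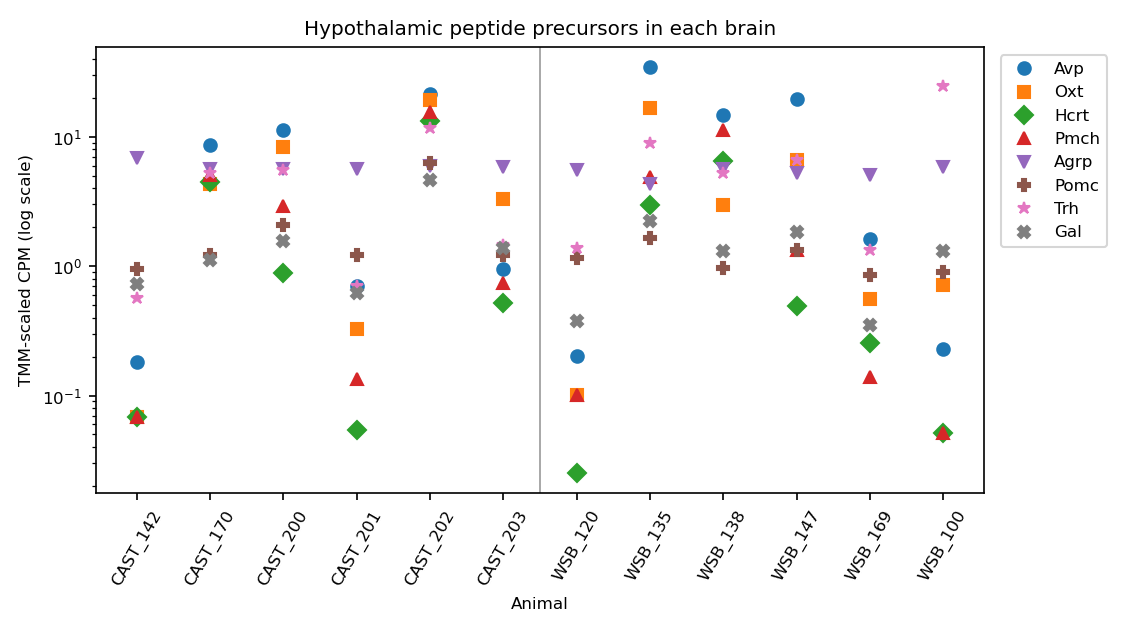
TMM-scaled CPM (log axis) of the 8 hypothalamic peptide precursors in each of the 12 animals, CAST on the left. Avp, Oxt, Hcrt, Pmch and Trh are high together in CAST_202 and WSB_135 and low together in CAST_142 and WSB_120, while Agrp stays between 4.31 and 6.87 CPM.

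Pomc, the precursor of melanocortins and beta-endorphin, had 0.949, 1.23 and 6.33 CPM in CAST, against 0.862, 1.06 and 1.65 CPM in WSB. Its highest value again came from CAST_202, where pituitary markers were also highest, and the next CAST animal had 2.09 CPM (log2 fold change 0.91 ± 0.45, adjusted p = 0.117). Gal, the galanin precursor, had 0.621, 1.25 and 4.66 CPM in CAST, against 0.35, 1.3 and 2.23 CPM in WSB, with an interval of -0.62 to 1.51 (log2 fold change 0.44, and -0.18 without CAST_202). Agrp, made by hunger-promoting neurons of the arcuate nucleus, did not follow the others. It had 5.6, 5.74 and 6.87 CPM in CAST, against 4.31, 5.39 and 5.89 CPM in WSB (log2 fold change 0.17 ± 0.09, adjusted p = 0.142). CAST_142, lowest in most hypothalamic peptides, was its highest animal. Only 23.5% of Agrp's exon bases lie outside other genes, which include Ctcf and Ripor1 on the opposite strand. Reads in the overlaps appear to be left out, so the Agrp count covers only part of the gene. The Agrp entry spans 70696 bases with 1013 exon bases, and 40.1% of its body lies outside other genes. If reads were counted over whole gene bodies, those outside the exons count as Agrp. Their part in its level was not tested.

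The spread between animals was measured as the SD of log2(CPM + 0.1) within strains. It was 2.80 for Avp, 2.61 for Pmch, 2.50 for Oxt, 2.45 for Hcrt and 1.64 for Trh, all at or above the 99.9th percentile of all genes tested. Among the rest, the VIP receptor gene Vipr2 had 1.16, Gal 1.0 and Cartpt 0.87. The median was 0.321 over the 45 members and 0.174 over all genes. At the other end, Cort had 0.12, Sstr3 0.13, Agrp 0.14 and Npy5r 0.14, all under the 40th percentile, Npy5r being at 39.6. Of these, Cort and Npy5r were called and Sstr3 and Agrp were not.

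**Figure D4:**
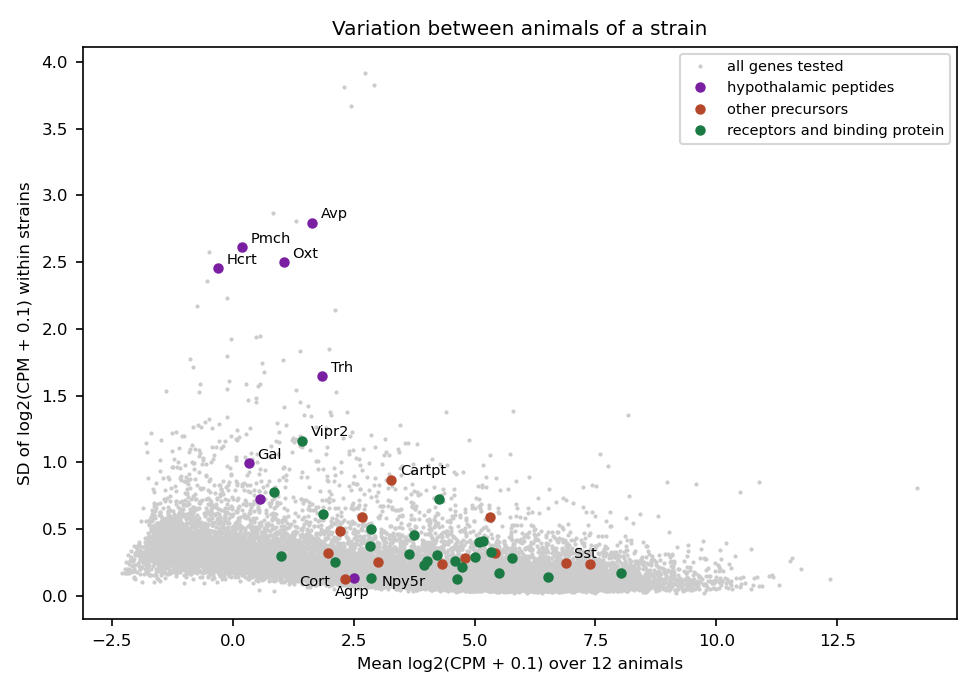
SD of log2(CPM + 0.1) between animals of a strain, averaged as variance over both strains, against the mean log2(CPM + 0.1) of the 12 animals. Grey points are all 18425 genes tested, and coloured points the members by class. Avp, Pmch, Oxt, Hcrt and Trh stand far above genes of like level, and Cort, Agrp and Npy5r lie in the body of the points.

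Among the receptors of NPY and somatostatin, 1 of the 6 tested was called. Npy5r encodes the Y5 receptor, one of the receptors through which NPY promotes feeding. It had 7.55, 9.6 and 11 CPM in CAST, against 4.96, 5.38 and 5.66 CPM in WSB, without overlap. The level was 1.77-fold higher in CAST (log2 fold change 0.83 ± 0.08, edgeR adjusted p = 3.28e-06), and the call held in all 20 alternatives. Its neighbour Npy1r, the Y1 receptor gene, starts 9063 bases away on the opposite strand of chromosome 8. Npy1r had 20.5, 30.6 and 34.5 CPM in CAST, against 21.5, 23.5 and 28.9 CPM in WSB (log2 fold change 0.26 ± 0.11, adjusted p = 0.0779). CAST_142 was its lowest CAST animal, and without that animal Npy1r was called at 0.34 (adjusted p = 0.00297). Npy2r, the presynaptic Y2 receptor gene, had 4.16, 6.41 and 11.4 CPM in CAST, against 5.15, 8.21 and 13.4 CPM in WSB (interval -0.80 to 0.24). The ligand gene Npy was thus lower and a receptor gene for it higher in the same 6 CAST animals.

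The somatostatin receptor genes with reads did not pass the test. Sstr1 had 18.8, 27.3 and 34.6 CPM in CAST, against 16.7, 23.6 and 24.3 CPM in WSB (log2 fold change 0.28 ± 0.13, adjusted p = 0.106). Without CAST_142 it was called at 0.36 (adjusted p = 0.0151). Sstr3, whose receptor sits in neuronal cilia, had 21.8, 26.7 and 27.8 CPM in CAST, against 21.7, 23.5 and 26.8 CPM in WSB. Sstr4 had 11.9, 14.6 and 18.6 CPM in CAST, against 13, 15 and 20.03 CPM in WSB. Their 95% intervals were -0.02 to 0.26 and -0.34 to 0.14, so that differences of the size seen for Cort lay outside both.

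Of the receptors for CCK, VIP, PACAP and CRH and the binding protein gene Crhbp, Crhbp alone was called, by edgeR and by DESeq2, and 1 gene in all had an unadjusted p under 0.05 by either. Crhbp encodes a secreted protein that binds CRH and limits its action, and is made by part of the somatostatin interneurons. It had 9.2, 14.5 and 16.2 CPM in CAST, against 15.4, 18.5 and 22.9 CPM in WSB, 1.35-fold lower (log2 fold change -0.44 ± 0.13, edgeR adjusted p = 0.0172). The ranges overlapped through WSB_138, at 15.4 CPM, and CAST_142, at 9.2 CPM, lay well below the other CAST animals, of which the next had 13.7 CPM. Without CAST_142 and WSB_100 the log2 fold change was -0.33 and still called (adjusted p = 0.0184). With the lane 6 files alone the call was lost (adjusted p = 0.0681).

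Crhr1, the main CRH receptor gene of the forebrain, had 25.9, 36.4 and 72.5 CPM in CAST, against 23.4, 34.7 and 43.2 CPM in WSB. The value of 72.5 CPM was that of CAST_142, and the log2 fold change of 0.23 ± 0.22 was 0.05 without CAST_142 and WSB_100. Cckbr, the main CCK receptor gene of the brain, had 42.1, 56.5 and 69.2 CPM in CAST, against 45.4, 52 and 76.3 CPM in WSB (interval -0.32 to 0.25). Vipr1, whose receptor binds both VIP and PACAP, had 29.6, 46.3 and 52.4 CPM in CAST, against 28.4, 39.1 and 48.9 CPM in WSB (interval -0.21 to 0.45). Adcyap1r1, the PACAP receptor gene, was the most abundant receptor gene per length, with 234, 264 and 325 CPM in CAST, against 219, 262 and 304 CPM in WSB (interval -0.12 to 0.24). Vipr2, which binds the same peptides as Vipr1 and is best known from the circadian clock of the hypothalamus, had 0.891, 1.23 and 5.04 CPM in CAST, against 1.24, 3.28 and 19.1 CPM in WSB. The highest value was that of WSB_100, the animal with the high olfactory bulb markers, and 47.6% of the Vipr2 body lies outside other genes. Its log2 fold change of -1.31 ± 0.66 (adjusted p = 0.129) was -0.78 without CAST_142 and WSB_100.

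Of the 4 opioid peptide receptors, Oprd1 was called. Oprd1 encodes the delta receptor, which binds enkephalins and is expressed by many parvalbumin interneurons. Its levels were 15.7, 28.4 and 30.6 CPM in CAST, against 34.1, 41.6 and 49.1 CPM in WSB, with no overlap. The level was 1.63-fold lower in CAST (log2 fold change -0.71 ± 0.15, edgeR adjusted p = 0.00154). The 20 alternatives gave log2 fold changes of -0.77 to -0.55, all called. The unnamed transcript Gm37711, which lies 1362 bases from Oprd1 on the same strand, was lower as well (log2 fold change -0.86 ± 0.16, adjusted p = 6.32e-04). Of 6 tested genes within 150 kb of Oprd1, 2 were called, and the other, the pseudogene Rps15a-ps4, was 5.07-fold higher in CAST (log2 fold change 2.34 ± 0.09, adjusted p = 2.81e-10). Over all genes tested the share called was 42.7%. Oprm1, the mu receptor gene, had 18.6, 28.9 and 45.2 CPM in CAST, against 28.8, 39.1 and 55 CPM in WSB (log2 fold change -0.44 ± 0.21, adjusted p = 0.105). It was called without CAST_202 (log2 fold change -0.59, adjusted p = 0.0259), and 44.3% of its body lies outside other genes. Oprk1, the dynorphin receptor gene, had 4.68, 22.6 and 24.2 CPM in CAST, against 11.1, 23.8 and 26.1 CPM in WSB. As for its ligand gene Pdyn, CAST_142 and WSB_120 were far below the others of their strains, at 4.68 and 11.1 CPM. Oprl1, the nociceptin receptor gene, had 39.5, 46.3 and 58 CPM in CAST, against 39.4, 42.3 and 51.4 CPM in WSB (interval -0.08 to 0.27).

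None of the tachykinin and neurotensin receptors was called by edgeR or DESeq2; at an unadjusted p under 0.05, 0 passed with edgeR and 1 with DESeq2. Tacr1, the substance P receptor gene, had 6.44, 13.3 and 14.6 CPM in CAST, against 9.39, 16.5 and 21.3 CPM in WSB (log2 fold change -0.42 ± 0.22, adjusted p = 0.151). Tacr3, the neurokinin B receptor gene, had 1.78, 3.32 and 7.05 CPM in CAST, against 2.31, 3.56 and 6.85 CPM in WSB. Ntsr1, the high-affinity neurotensin receptor gene, had 7.41, 10.6 and 15.1 CPM in CAST, against 11.9, 14 and 17.1 CPM in WSB (log2 fold change -0.34 ± 0.16, adjusted p = 0.115). It was called without CAST_202 (log2 fold change -0.44, adjusted p = 0.0421). Ntsr2, a neurotensin receptor gene expressed mainly by astrocytes in mouse brain, had 80.2, 89.8 and 108 CPM in CAST, against 78.7, 93.5 and 97.9 CPM in WSB (interval -0.13 to 0.18).

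Among the receptors of hypothalamic peptides, Oxtr was called. The oxytocin receptor it encodes acts in social and maternal behaviour and is made by some interneurons. Oxtr had 2.85, 6.21 and 7.06 CPM in CAST, against 7.51, 9.13 and 12 CPM in WSB, and the ranges did not overlap. The level was 1.62-fold lower in CAST (log2 fold change -0.70 ± 0.19, edgeR adjusted p = 0.00797), and -0.56 without CAST_142 and WSB_100. Of 5 tested genes within 150 kb of Oxtr, 4 were called, 3 of them higher and Gm15519 lower, where 42.7% of all genes tested were called. For its ligand gene Oxt the interval was -1.77 to 2.45, too wide to place a difference of that size. Hcrtr1, an orexin receptor gene best known from the noradrenergic locus coeruleus, had 1.78, 2.25 and 2.95 CPM in CAST, against 1.15, 1.75 and 2.02 CPM in WSB (log2 fold change 0.45 ± 0.17, adjusted p = 0.0536). It passed the threshold with DESeq2 (adjusted p = 0.0353) and under 4 of the 12 fits without 1 animal. Hcrtr2, the orexin receptor gene whose loss causes narcolepsy in dogs, had 3.45, 3.87 and 5.94 CPM in CAST, against 3.65, 4.53 and 4.98 CPM in WSB. Mchr1, the melanin-concentrating hormone receptor gene, had 10.1, 19.7 and 22.8 CPM in CAST, against 17.3, 18.7 and 20.9 CPM in WSB. Their log2 fold changes were -0.05 each, with intervals of -0.33 to 0.24 for Hcrtr2 and -0.34 to 0.25 for Mchr1. Galr1, a galanin receptor gene, had 0.918, 1.44 and 3.22 CPM in CAST, against 0.734, 2.17 and 4.07 CPM in WSB (interval -1.28 to 0.33).

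Compared per length, as mean CPM per kb of exon over the 12 animals, the peptides spanned a wider range than their receptors. These levels are rough, since they were not adjusted for reads in introns or for exon bases inside other genes. Outside other genes lie 23.5% of exon bases for Agrp, 41.9% for Pmch and 71.7% for Oprm1. Precursors ran from 1.26 to 168 CPM per kb with a median of 5.47, and receptors and the binding protein from 0.657 to 39.8 with a median of 5.78. Sst (168), Cck (131) and Npy (79.6) were the highest of all members in CPM per kb, followed by the receptor genes Adcyap1r1 (39.8) and Ntsr2 (29.3). All of the 3 leading precursors were lower in CAST. Accordingly, the summed level of the 20 precursors was 290.1, 473 and 512 CPM in CAST (lowest, median and highest), against 521, 549.96 and 589.7 CPM in WSB, without overlap, and this sum rests mostly on Cck and Sst. The summed receptor level was 719.5 to 882 CPM in CAST and 776 to 890.4 CPM in WSB.

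**Figure D5:**
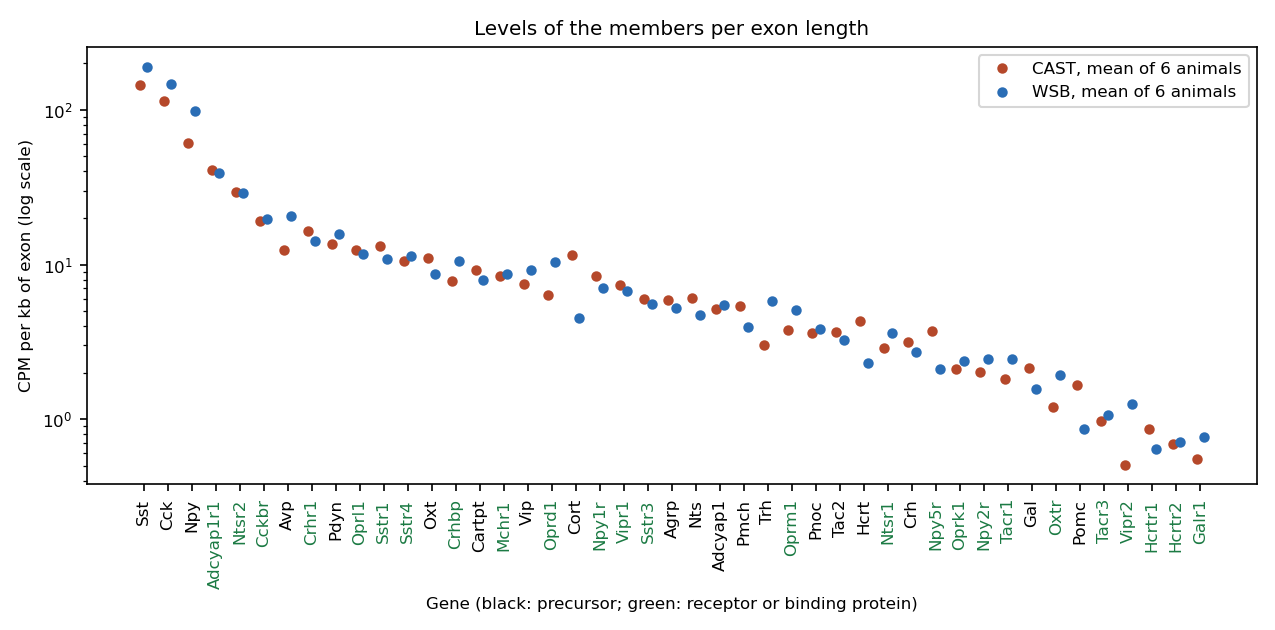
Mean CPM per kb of exon (log axis) of the 45 genes with reads, ordered by level, in CAST (left point of each pair) and WSB (n = 6 each). Sst, Cck and Npy lead with 168, 131 and 79.6 CPM per kb over the 12 animals, and the lowest receptor gene has 0.657. Levels are not adjusted for introns or overlapping genes.

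Other genes of the peptide systems came from lists by role, which, like the members, were drawn up with earlier results of these data known. Of 18 other peptide precursors tested, 4 were higher in CAST and none lower by edgeR (1 at an unadjusted p under 0.05, and 1 called by DESeq2), with a median log2 fold change of 0.09. Apln, the precursor of apelin, a peptide of endothelial cells, had 31.5, 35.3 and 42.6 CPM in CAST, against 15.5, 21 and 29.8 CPM in WSB (log2 fold change 0.76 ± 0.15, adjusted p = 7.79e-04). The others were Ucn, a CRH relative (log2 fold change 1.62), Grp, which encodes gastrin-releasing peptide (0.67), and Ghrl, the ghrelin precursor (0.23). Ucn was low, with medians of 0.705 CPM in CAST and 0.237 CPM in WSB. Without CAST_142 and WSB_100 Grp was not called (log2 fold change 0.58, adjusted p = 0.0665), and neither was Ghrl without WSB_120 (adjusted p = 0.0507) or with the lane 5 files alone (adjusted p = 0.259). Penk, the enkephalin precursor and ligand gene of Oprd1, was not called, with medians of 119 CPM in CAST and 159 CPM in WSB (log2 fold change -0.54 ± 0.32, adjusted p = 0.2). Penk was chosen for mention after its values were seen.

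Of 36 other peptide receptor genes tested, 8 were higher and 2 lower, with a median of 0.22. The receptor genes Aplnr of apelin (log2 fold change 1.49) and Grpr of gastrin-releasing peptide (0.56) were higher, as were their ligands' genes. Grpr was not called with lane 5 alone (edgeR adjusted p = 0.0591). These pairs were chosen for mention after their values were seen. Ghsr, the ghrelin receptor gene (1.16, edgeR adjusted p = 0.157), and Crhr2, a CRH receptor gene (0.04, edgeR adjusted p = 0.919), were not called, though Ghrl and Ucn were. Rxfp1, a relaxin receptor gene, had 29.9, 41.4 and 51 CPM in CAST, against 21, 24.2 and 34.4 CPM in WSB (log2 fold change 0.69 ± 0.13, adjusted p = 8.99e-04). The prokineticin receptor genes differed in opposite directions, Prokr1 higher (2.41 ± 0.36) and Prokr2 lower (-0.97 ± 0.28). Ramp2, which directs receptors of the calcitonin family, was higher (0.49), with 56.8% of its body outside other genes, and Nmur1, a neuromedin U receptor gene, was lower (-1.98). Levels of Prokr1, Nmur1 and Aplnr were low. Their medians were 0.755, 0.122 and 0.775 CPM in CAST, against 0.129, 0.458 and 0.267 CPM in WSB. Neither list reached the 42.7% called over all genes, at 22.2% for the precursors and 27.8% for the receptors.

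Among 34 genes for cutting and packaging peptides and for breaking them down, 2 were higher and 6 lower, or 23.5% called against 42.7% over all genes, with a median of -0.03. Scg3, a granin that sorts cargo into dense core vesicles, had 215, 232 and 309.8 CPM in CAST, against 166, 189 and 199 CPM in WSB (log2 fold change 0.36 ± 0.08, adjusted p = 0.00266). Chga, another granin, was lower, with 104, 125 and 146 CPM in CAST and 132, 151 and 161 CPM in WSB (log2 fold change -0.26 ± 0.08). Pcsk5, a convertase that cuts precursors, was the other higher gene (log2 fold change 0.24), but this call was lost under 13 of the 20 alternatives: with either lane alone, and without any 1 of 11 animals (all but CAST_142). The remaining 5 lower genes encode peptidases: Enpep, which cuts angiotensin II (-1.38 ± 0.12), Dpp4 (-0.66), Anpep (-0.49), Prep (-0.22) and Prcp (-0.19). Enpep had 1.02, 1.26 and 1.59 CPM in CAST, against 2.74, 3.45 and 3.63 CPM in WSB. Of the Dpp4 body, 32.9% lies outside other genes. Anpep is named here to complete the count, after its values were seen.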

How the data were processed

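RNA of 12 brains was sequenced, each on lanes 5 and 6. The deposited values are whole-number read counts per gene, not normalized, listed by Ensembl identifier. Tools listed in the submitters' processing notes, with no order, are TopHat2 2.1.1, HTSeq, cutadapt and DESeq2. The authors' genome build, gene annotation and use of strand are not stated there or in the files. Reads in genes were 62.9% to 68% of all alignments counted, 11.1% to 16.5% fell in more than 1 feature, and rows that name no gene were left out. The counts behave as if reads had been assigned to whole gene bodies without strand. Reads in stretches shared by overlapping or antisense genes appear to have been counted for none of them. Symbols and positions come from GENCODE M21 (GRCm38), which holds 53360 of the 53465 identifiers.

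The members and all lists were chosen with earlier results of these data known. Lane files of an animal were summed, since they are repeat runs (chi-square per degree of freedom between lanes 1.09 to 1.4). Strains were compared, CAST over WSB, with edgeR 4.0.16 in R 4.3.3 (quasi-likelihood test, robust dispersion, TMM, default filter by strain, no covariate), and p-values were adjusted by Benjamini-Hochberg over all 18425 genes tested. SE is the size of the log2 fold change over the square root of F, and 95% intervals are approximate, from the SE. Nothing beyond the animal numbers says that the animals were independent samples. The p-values set the strain difference against the spread between these animals, and hold only if the animals were independent. On simulated counts for this comparison (18259 genes), 67, 67 and 66 genes were changed by 1.5-fold, 2-fold and 4-fold. The test recovered 62.7% of 1.5-fold differences, 79.1% at 2-fold and 95.5% at 4-fold, and made 8 false calls. Far fewer genes were changed than were called in the real data, and they were not picked to vary like the members. These shares therefore do not carry over to the members. Alternatives were DESeq2 1.42.0, other scalings and filters, single lanes, and leaving out animals. All members were named, with ranges for those that were called or had a mean of at least 1 CPM; of each wider list up to 5 called genes per direction by p; of each marker list counts, sums and up to 2 called genes. Promoter windows are RefSeq's.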

Additional observations from a re-analysis of the deposited data

Results flagged for a closer look

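In 15 of 90 combinations of a gene and a strain, 1 animal's CPM lay far from the other 5 by Dixon's criterion. For independent values with a normal distribution, chance would give about 1 in 20. Here CPM were not transformed and several genes were high or low in the same animals, so that rate is not a baseline. CAST_202 was the animal in 6 of them. It was highest for Hcrt at 13.3 CPM (next 4.47), Pmch at 15.5 CPM (next 5.06), Pomc at 6.33 CPM (next 2.09), Gal at 4.66 CPM (next 1.57) and Galr1 at 3.22 CPM (next 1.77), and lowest for Sstr3 at 21.8 CPM (next 25.6). Its summed hypothalamic markers were also the highest of all animals, 50.4 CPM.

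CAST_142 was the animal in 5. It was lowest for Pdyn at 12.3 CPM (next 37), Crhbp at 9.2 CPM (next 13.7) and Oprk1 at 4.68 CPM (next 18.3), and highest for Agrp at 6.87 CPM (next 5.99) and Crhr1 at 72.5 CPM (next 38.4). This is the animal with 1639.6 CPM of cerebellar and 347 CPM of striatal markers.

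WSB_120 was lowest of its strain for Pdyn at 28.5 CPM (next 45.1) and Oprk1 at 11.1 CPM (next 21.7), and also in summed striatal markers, at 1032 CPM. WSB_100 was highest for Trh at 24.9 CPM (next 8.93) and Vipr2 at 19.1 CPM (next 3.89), beside 291 CPM of olfactory bulb markers. The part of these marker levels in the distant values was not tested.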

How the results depend on the processing

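Each result was computed under 20 alternatives. No called member changed direction in any of them. For the 45 members, 854 of 899 values kept direction and side of the threshold, 7 fell short of it, 15 passed it and 23 had the opposite sign, none of these called. For 28 other named genes the counts were 515 of 548, 29, 1 and 3. Of the sign changes, Hcrtr2 had a log2 fold change of 0.03 with lane 5 alone. Without CAST_142 and WSB_100, Mchr1, Oprk1 and Pde10a had 0.05 each, and Cckbr and Trh 0.06 each. Cort, Npy5r, Npy, Sst, Oprd1 and Oxtr were called in all 20. Crhbp was lost with lane 6 alone, and Cck under 6, of which no filter on low counts gave an adjusted p of 0.0591 and leaving out CAST_142 and WSB_100 gave 0.0768. With DESeq2, 2 receptor members were higher in CAST against 1 by edgeR, and 1 other precursor was lower against 0. Without a filter, also 1 other precursor was lower. With at least 1 CPM in 6 animals, 5 other receptors were higher and 1 lower, against 8 and 2. With lane 5 alone, 2 member precursors were higher against 1, 2 other precursors were higher against 4 and 1 other receptor was lower. With lane 6 alone, 1 other receptor was lower and 1 processing gene higher against 2. Without CAST_142 and WSB_100, 5 members were higher against 2 (2 precursors and 3 receptors), and 4 other receptors were lower. The causes were not tested; a lane holds fewer reads and the stricter filter fewer genes.

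Leaving out each animal in turn gave 2 to 4 members higher and 5 to 7 lower in CAST, with 1 to 3 receptor members higher and 3 to 5 lower, and 1 precursor higher and 2 to 4 lower. Without CAST_142, 4 members were higher, and without CAST_202, 5 receptor members were lower. Other precursors gave 3 to 4 higher and 0 to 1 lower, other receptors 6 to 12 higher and 2 to 4 lower, and processing genes 1 to 3 higher and 5 to 8 lower. Among processing genes, Pcsk5 was lost without any 1 of 11 animals. The log2 fold changes of genes whose sign changed ran from -0.51 to 1.43 for Oxt, -0.48 to 2.03 for Hcrt, -0.69 to 1.60 for Pmch, -0.18 to 0.71 for Gal and -0.15 to 0.41 for Cartpt, each lowest without CAST_202. They ran from -0.12 to 0.07 for Cckbr, -0.02 to 0.33 for Crhr1, -0.16 to 0.01 for Hcrtr2, -0.11 to 0.08 for Mchr1, -0.02 to 0.06 for Ntsr2, -0.31 to 0.03 for Oprk1, -0.42 to 0.08 for Tacr3 and -0.20 to 0.04 for Pde10a, a striatal marker. Over all genes, 7313 to 8726 were called. No paired analysis was possible because the animal numbers are not shared between the strains. In the test on simulated counts, differences of 1.5-fold were recovered in 62.7% of genes, a share that was not measured for the members themselves. A member that was not called is not shown to be alike in the strains.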
